A study of Solanum lycopersicum with 16 samples.

Results

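Transcripts of the tomato INDETERMINATE DOMAIN (IDD) family were compared between roots and shoots of the same stress and the same time. The comparison used 12 of the 16 samples, those from stressed plants, and all 22 measured genes. These were SlIDD1 to SlIDD18, SlIDD-like1, the zinc-finger gene SlSTOP1, STF4 and CRF5. The plants were wild-type Solanum lycopersicum cv. M82, 3 weeks old and grown in potting medium in a greenhouse. Salt roots and salt shoots came from medium saturated with 200 mM NaCl, low pH roots and low pH shoots from medium saturated with water at pH 4.2, and flood roots and flood shoots from plants whose roots stood under water. Each tissue was collected at 2 h and 24 h, which gave 6 comparisons of roots with shoots. Samples were assigned by title and source tissue, because other fields of the labels named other tissues and stresses for some samples. The times were taken from the well rows and not from the label of each plate.

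Expression was measured by quantitative PCR with SYBR Green. The measured value was the threshold cycle, Ct, the cycle at which the fluorescence of a well crossed a set level, so that a transcript with more copies has a lower Ct. In the deposited values each sample filled a plate of its own, so roots and shoots never shared a plate. The first and second plate named below (plate 1 and plate 2) are thus sets of targets. A difference between the plates of roots and shoots cannot be told apart from one between the tissues. Each target was set against ubiquitin on its own plate as ΔCt, the target Ct minus the mean ubiquitin Ct of that tissue, stress and time. The log2 ratio of roots over shoots was the ΔCt of shoots minus that of roots and assumes doubling in each cycle. A positive ratio means more transcript per ubiquitin transcript in roots. Levels of different genes were not compared, since primer efficiencies were unknown. A tissue at 1 time had up to 4 wells. The study's methods give 4 biological samples, but nothing ties a well to a plant, so the p-values measure the spread between wells, which may be partly technical. In whole organs, fewer cells that express a gene and less RNA per cell cannot be told apart. None of the genes measured is a defining marker of roots or of shoots, so the tissue labels could not be checked.

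IDD proteins are transcription factors found in plants, with a conserved set of C2H2-type zinc fingers. In Arabidopsis, MAGPIE, NUTCRACKER, JACKDAW and BALDIBIS act with SHORT-ROOT and SCARECROW to set the tissue layers of the root, while other members act in gibberellin signalling with DELLA proteins or in gravitropism of the shoot. STOP1 of Arabidopsis is a related zinc-finger factor needed for tolerance of protons and aluminium, and CRF genes encode cytokinin response factors.

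Ubiquitin itself differed between the tissues. Its mean Ct was lower in roots in 10 of 12 pairs of groups, and in 9 of the 12 the root and shoot wells were fully apart. In 6 of these 9 both tissues had 4 wells (exact permutation p = 0.0286, the smallest that 4 wells against 4 allow, adjusted p = 0.0571 over the 12), and in the other 3, with fewer wells, p was 0.1. The gap was widest under low pH at 24 h on the first plate, with Ct values of 13.73, 13.78, 13.82 and 13.65 in roots, against 15.46, 15.81, 15.90 and 15.55 in shoots. On the second plate the same groups had 15.94 and 15.93 in roots, against 16.77, 16.75 and 16.97 in shoots. Roots minus shoots was therefore -1.93 cycles on plate 1, against -0.90 on plate 2. At 2 h the low pH roots held 1 ubiquitin well at 18.94 on the second plate, against 16.77 to 17.23 in the other wells of that group, and all low pH wells of the second plate had a higher ubiquitin Ct than those of the first. Under flood at 24 h, only 2 root wells of ubiquitin were used on each plate, and on the second plate 1 more had a Ct but was left out for its irregular well name. In that comparison roots minus shoots was 0.15 cycles on plate 1, against -0.90 on plate 2.

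**Figure D1:**
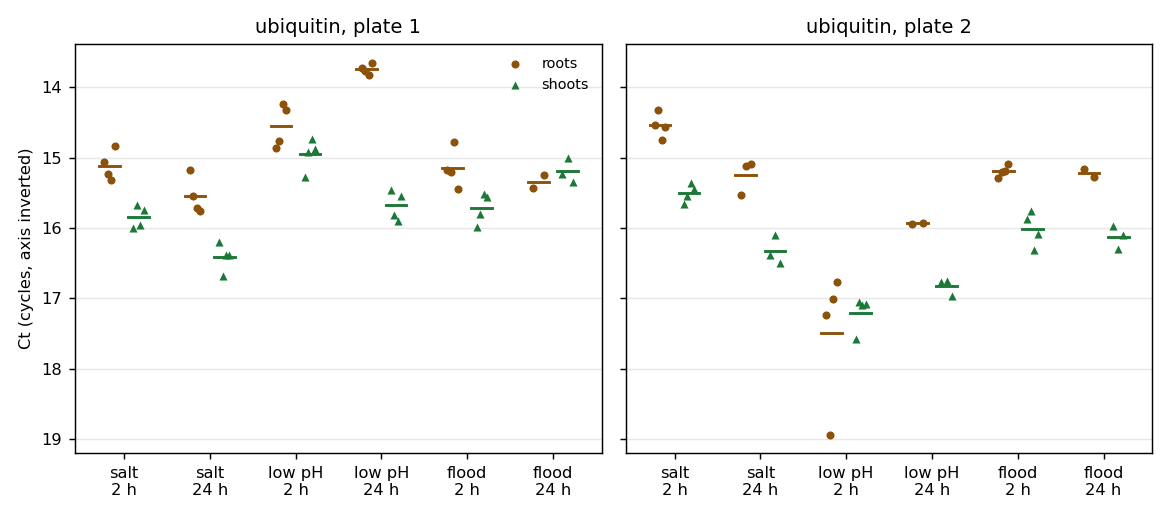
Ubiquitin Ct (cycles, axis inverted so that more transcript is higher) of every well used, in roots (brown circles) and shoots (green triangles) by stress and time, on plate 1 (left) and plate 2 (right), with bars at the means. Roots lay above shoots in 10 of 12 pairs, most clearly under low pH at 24 h on plate 1 (-1.93 cycles), and the 18.94 well of low pH roots stands apart on plate 2.

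STF4 and CRF5, in neighbouring columns of the second plate, stood apart in flood roots. The 7 flood root wells of STF4 had Ct values of 20.09 to 20.56, against 16.49 to 18.91 in the 26 other wells. For CRF5, the 7 flood root wells had 16.13 to 17.18, against 19.45 to 22.26 in the 27 other wells. All 7 flood root wells of STF4 fell in the range of CRF5 elsewhere. Of the 7 of CRF5, 4 fell in the range of STF4 elsewhere and 3, at 24 h, lay below it. Whether the columns of that plate were exchanged was not tested, and both readings are given below for these genes. In low pH shoots neither gene gave a Ct, which left 20 targets under low pH.

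**Figure D2:**
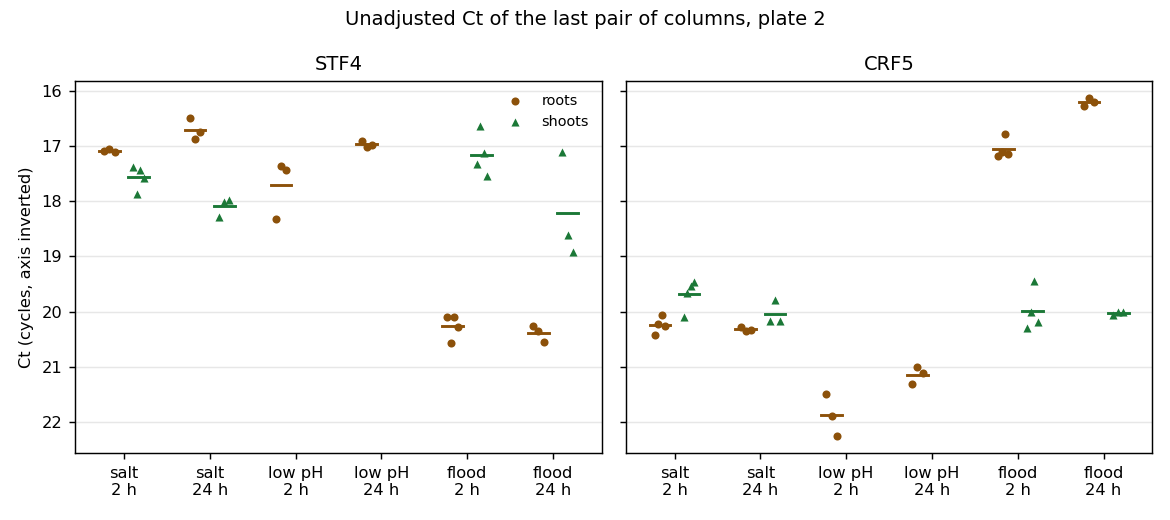
Ct before any subtraction (cycles, axis inverted) of STF4 (left) and CRF5 (right) in roots (brown circles) and shoots (green triangles), by stress and time, with bars at the means. STF4 in flood roots lay at 20.09 to 20.56 and CRF5 in flood roots at 16.13 to 17.18, outside the range of every other group of the same gene.

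Of 128 ratios, 78 passed an adjusted p of 0.05 (60.9%), 28 with more transcript in roots and 50 with less, and each of the 22 targets passed at least once. Under salt, 12 of 22 targets passed at 2 h (54.5%), of which 5 were higher (22.7%) and 7 lower (31.8%) in roots. At 24 h of salt 13 passed (59.1%), 7 of them higher (31.8%) and 6 lower (27.3%). Under low pH, 8 of 20 passed at 2 h (40%), with 4 higher (20%) and 4 lower (20%). By 24 h of low pH 13 passed (65%), 4 higher (20%) and 9 lower (45%). Under flood, 16 of 22 passed at 2 h and at 24 h (72.7%), 4 higher (18.2%) and 12 lower (54.5%) each time. The root and shoot wells did not overlap for 68.2% of the targets at each time of salt and of flood, for 50% at 2 h of low pH and for 55% at 24 h of low pH. At these shares a single pass was common, so the sizes and the wells are given for the genes named below. The median ratio over all targets, in the same order, was -0.34, -0.12, 0.25, -0.33, -0.77 and -0.70. Without a reference gene it was 0.48, 0.87, 0.33, 0.57, -0.13 and -0.14, so the split of higher against lower genes depended on ubiquitin.

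The ratios of the 22 genes were closer between the times of 1 stress than between stresses. Across targets, the ratios at 2 h and 24 h had a Pearson r of 0.89 and a Spearman rho of 0.88 under salt (22 targets). Under low pH r was 0.64 and rho 0.61 (20 targets), and under flood r was 0.70 and rho 0.72 (22 targets). Over the 12 pairs of comparisons from different stresses, r ran from -0.18 to 0.31 and rho from -0.21 to 0.25. These are descriptions across genes, which share plates and ubiquitin wells and are not independent. Both times of a stress and tissue lay on the same plates, while different stresses lay on different plates. Closeness by stress and closeness by plate therefore cannot be told apart. The flood values include STF4 and CRF5 as plated.

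**Figure D3:**
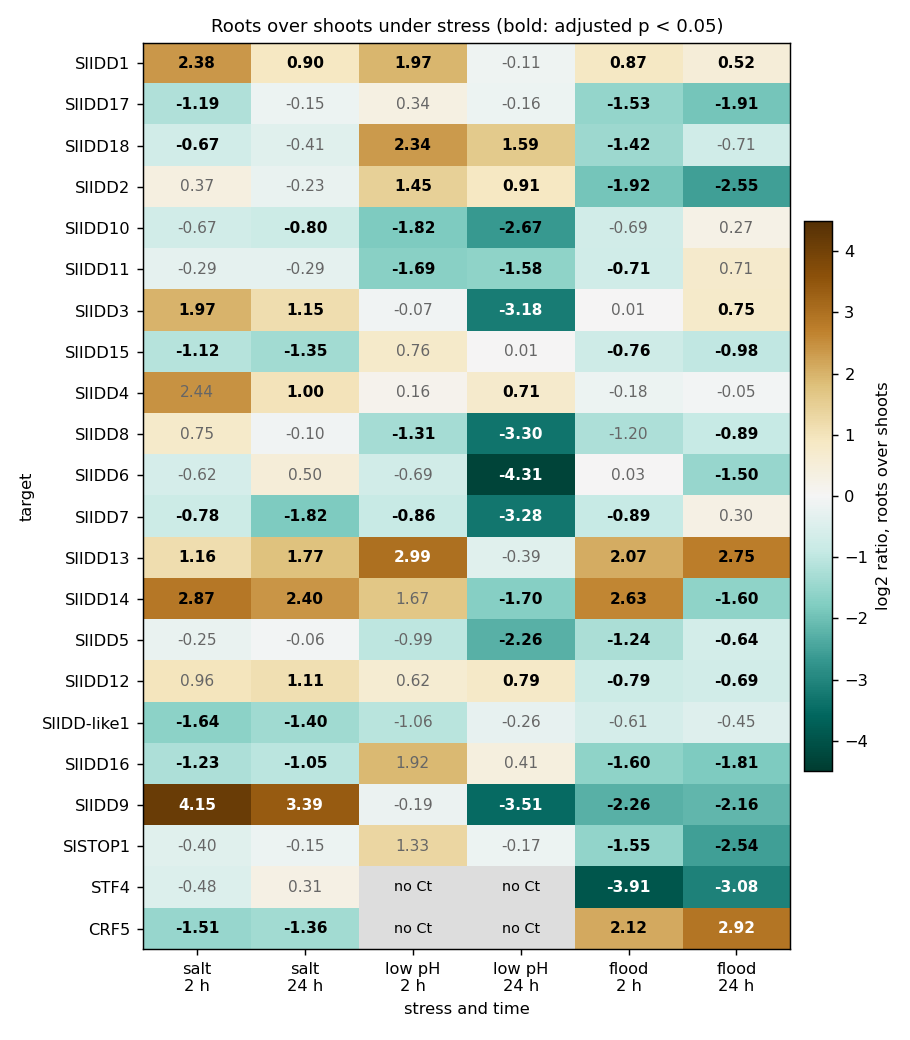
Log2 ratio of roots over shoots (colour and number, brown for more in roots and green for less) for 22 targets (rows) in 6 comparisons (columns), bold where the adjusted p is under 0.05 and grey where no Ct was read. SlIDD1 and SlIDD13 are bold and brown in 5 columns and SlIDD7 bold and green in 5, while SlIDD9 has 4.15 under salt at 2 h and -3.51 under low pH at 24 h.

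SlIDD13 was higher in roots in 5 of 6 comparisons. It groups with the Arabidopsis root-patterning IDD genes and, with its duplicate SlIDD14, has been tied to stem thickness and leaf shape in tomato. Under low pH at 2 h its ΔCt was 0.66, 0.71, 0.71 and 1.11 in roots, against 4.03, 4.08 and 3.26 in shoots. That was a log2 ratio of 2.99 (SE 0.58, 7.95-fold, adjusted p = 0.00329), and the wells of the tissues did not overlap. With ubiquitin averaged over both plates the ratio was 2.65 and no longer passed (adjusted p = 0.0768). That setting pools the ubiquitin wells of both plates, so an offset in Ct between the plates counts as error. Under flood, roots had a ΔCt of 1.95, 0.92, 1.28 and 1.31 at 2 h, against 3.35, 3.27, 3.52 and 3.61 in shoots, and 0.41, 0.81, 0.87 and 0.80 at 24 h, against 3.01, 3.50, 3.49 and 3.89. These flood ratios were 2.07 (SE 0.26, 4.21-fold, adjusted p = 7.13e-06) and 2.75 (SE 0.24, 6.72-fold, adjusted p = 2.92e-06). Under salt the ratios were smaller, 1.16 (SE 0.35, adjusted p = 0.0206, and 0.74 with adjusted p = 0.126 without row 4) at 2 h and 1.77 (SE 0.27, adjusted p = 0.000187) at 24 h, again with no overlap. Low pH at 24 h was the exception, with a ΔCt of 1.69, 2.16, 1.67 and 2.08 in roots and 1.29, 1.05, 1.92 and 1.79 in shoots, which overlapped (ratio -0.39, 95% interval -0.92 to 0.14).

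SlIDD1, related to the gibberellin-signalling genes AtIDD1 and AtIDD2, was also higher in roots in 5 comparisons. Under salt at 2 h its ΔCt was 6.24, 6.41, 6.49 and 6.05 in roots, against 9.94, 9.66, 8.04 and 7.06 in shoots. The shoot wells were widely spread but all lay above the root wells (ratio 2.38, SE 0.62, 5.2-fold, adjusted p = 0.0156), and without row 2 the ratio was 1.99 (adjusted p = 0.0702). Under low pH at 2 h, roots had 5.71, 5.80, 5.97 and 5.89, against 7.61, 7.61, 8.42 and 7.59 in shoots, a ratio of 1.97 (SE 0.32, 3.91-fold, adjusted p = 0.000341). With ubiquitin over both plates the ratio was larger, 2.31, but did not pass (adjusted p = 0.0897). Smaller ratios were seen under salt at 24 h (0.90, SE 0.21, adjusted p = 0.00273) and under flood at 2 h (0.87, SE 0.24, adjusted p = 0.00531). The flood ratio at 24 h was 0.52 (SE 0.21, adjusted p = 0.0472) and -0.00961 with ubiquitin over both plates, and it passed in only 1 of 4 fits that left out a row. The tissues overlapped at 24 h of low pH (-0.11, 95% interval -0.64 to 0.42), a value that was 1.82 with no reference gene.

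SlIDD7, of the same group as SlIDD13, went the other way and was lower in roots in 5 comparisons. Under salt at 24 h its ΔCt was 5.01, 4.80, 4.40 and 4.33 in roots, against 2.69, 2.77, 2.72 and 3.05 in shoots (ratio -1.82, SE 0.25, 3.54-fold, adjusted p = 1.91e-05). Under low pH at 24 h it was 6.59, 5.44 and 4.83 in roots, against 2.37, 2.01, 2.48 and 2.49 in shoots (ratio -3.28, SE 0.33, 9.74-fold, adjusted p = 6.06e-10). Both sets of wells were fully apart. The 3 comparisons at 2 h gave -0.78, -0.86 and -0.89 under salt, low pH and flood, with adjusted p of 0.0213, 0.0325 and 0.0399, and held in 2, 1 and 1 of 4 fits that left out a row. The flood wells at 24 h overlapped, and the ratio was 0.30 (95% interval -0.45 to 1.06).

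SlIDD16 passed in the 4 comparisons under salt and flood and was lower in roots in each. Mutants of this gene, known as SlZF-31, had an altered tolerance of salt and drought in earlier work. Its ΔCt at 24 h of flood was 4.87, 4.89, 5.18 and 5.26 in roots, against 2.96, 3.06, 3.21 and 3.71 in shoots (ratio -1.81, SE 0.23, 3.52-fold, adjusted p = 4.09e-05). The ratio was -1.60 at 2 h of flood (adjusted p = 0.000173), -1.23 at 2 h of salt (adjusted p = 0.0156, and 0.0789 without row 2) and -1.05 at 24 h of salt (adjusted p = 0.00405). With no reference gene the last of these turned to a ratio of 0.0273 (adjusted p = 0.882). Under low pH the shoot wells ran from 4.32 to 7.52 at 2 h, the tissues overlapped and no ratio passed. SlIDD15 had the same 4 passes, at -1.12 and -1.35 under salt and -0.76 and -0.98 under flood, although its wells overlapped at 2 h of both stresses and its ratio at 2 h of flood was 0.0563 with no reference gene. With ubiquitin over both plates its flood ratios were -0.63 (adjusted p = 0.073) and -0.46 (adjusted p = 0.373) and did not pass.

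**Figure D4:**
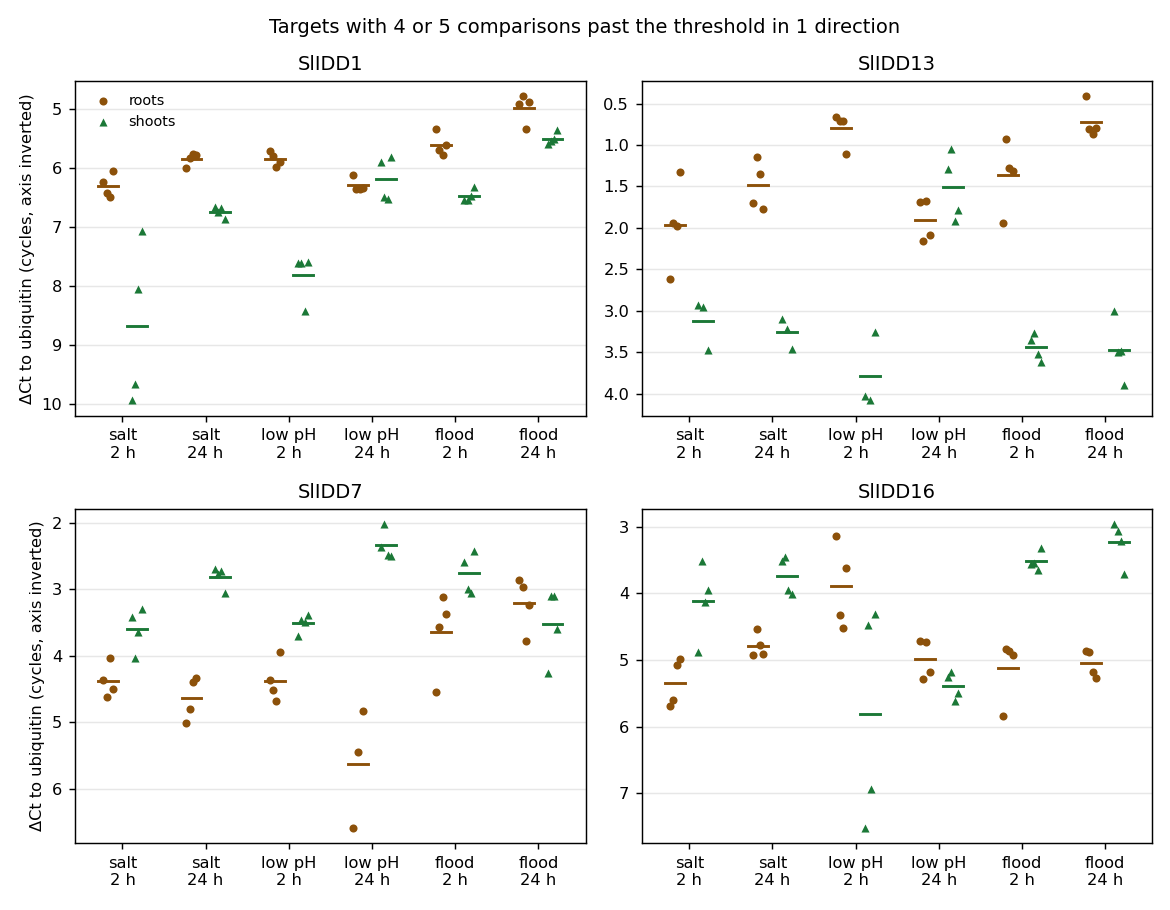
ΔCt to ubiquitin of every well (cycles, axis inverted so that more transcript is higher) for SlIDD1, SlIDD13, SlIDD7 and SlIDD16, in roots (brown circles) and shoots (green triangles) by stress and time, with bars at the means. Roots lay above shoots for SlIDD1 and SlIDD13 in 5 comparisons each, and below them for SlIDD7 in 5 and for SlIDD16 in the 4 under salt and flood.

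SlIDD9 had the widest span of ratios in the panel. The paper calls it a close homolog of Arabidopsis STOP1, although in the paper's alignment its zinc fingers match those of SlIDD12, SlIDD5 and SlIDD-like1. The deposited fold-change table gives SlIDD9 and SlSTOP1 the same locus name. Which transcript each primer pair reads was therefore taken from the gene names alone. Under salt at 2 h its ΔCt was 9.91, 10.23, 10.18 and 10.24 in roots, against 16.22, 11.92, 12.19 and 16.81 in shoots. The shoot wells fell into 2 pairs, with Ct values of 32.07 and 32.65, against 27.77 and 28.03. The well at 32.65 had the highest Ct of all wells used. The log2 ratio of 4.15 (SE 1.13, 17.7-fold, adjusted p = 0.0156) had a 95% interval of 1.57 to 6.72 and was 3.49 without row 1 (adjusted p = 0.0684). At 24 h the root wells stood at 9.70, 9.86 and 9.47, against 13.95, 13.17 and 12.08 in shoots (ratio 3.39, SE 0.45, 10.5-fold, adjusted p = 0.000116). Under flood the order of the tissues was the opposite. At 2 h roots had 9.98, 9.81, 9.93 and 10.10, against 7.76, 7.70, 7.77 and 7.56 in shoots (ratio -2.26, SE 0.24, 4.78-fold, adjusted p = 2.01e-06), and at 24 h 9.68, 9.44 and 9.58, against 8.11, 7.09 and 7.01 (ratio -2.16, SE 0.35, adjusted p = 0.000833). Over these 4 comparisons the root wells lay between 9.44 and 10.24, while the shoot wells ran from 7.01 to 16.81. Under low pH the tissues overlapped at 2 h (ratio -0.19), and at 24 h roots had 9.53, 10.26 and 10.48, against 6.36, 6.94 and 6.43 in shoots (ratio -3.51, SE 0.31, 11.4-fold, adjusted p = 6.36e-11).

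The change of the SlIDD9 ratio with the stress was itself tested. Under salt it exceeded that under flood by 6.40 (SE 1.15, adjusted p = 0.000195) at 2 h and by 5.55 (SE 0.64) at 24 h, and it exceeded that under low pH by 4.34 (SE 1.42, adjusted p = 0.0416) at 2 h and by 6.90 (SE 0.55) at 24 h. Each of these differences passed with wells that did not overlap in the salt and flood comparisons.

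SlIDD14, the duplicate of SlIDD13, turned with time under flood. Under salt its ΔCt was 2.07, 1.89, 2.48 and 1.87 in roots at 2 h, against 5.11, 4.79, 4.94 and 4.96 in shoots (ratio 2.87, SE 0.22, 7.32-fold, adjusted p = 3.25e-07). The salt ratio at 24 h was 2.40 (SE 0.26, 5.26-fold, adjusted p = 1.91e-05). At 2 h of flood roots had 3.88, 3.22 and 4.02, against 7.12, 6.45, 6.13 and 5.65 in shoots (ratio 2.63, SE 0.38, adjusted p = 0.000123). In these 3 comparisons every root well lay below every shoot well in ΔCt. At 24 h of flood roots had 6.22, 7.35 and 7.80, against 5.09, 5.03, 5.39 and 6.57 in shoots, which overlapped by 1 well (ratio -1.60, SE 0.52, adjusted p = 0.0232, and -1.08 with adjusted p = 0.157 with ubiquitin over both plates). The difference between the times was -4.23 (SE 0.67, adjusted p = 0.000263), the only one of 22 targets to pass under flood (4.55%), although the 24 h ratio itself did not pass without row 1 (adjusted p = 0.07) or row 3 (adjusted p = 0.118). Under low pH the same gene had 2.47, 3.00, 3.82 and 2.57 in roots at 2 h, against 4.91 and 4.38 in shoots (ratio 1.67, adjusted p = 0.0634). Later, at 24 h of low pH, it had 7.07, 6.17, 6.47 and 6.36 in roots, against 4.28, 5.94, 3.92 and 5.13 in shoots (ratio -1.70, SE 0.34, adjusted p = 5.73e-05). In roots the ΔCt of SlIDD14 was thus 6.17 to 7.80 at 24 h of flood and of low pH, against at most 4.02 in the other root wells.

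SlIDD2 and SlIDD18 had opposite ratios under low pH and flood. SlIDD2, whose rice relative OsIDD2 represses lignin synthesis genes, had a ΔCt of 3.61, 3.62, 3.39 and 3.41 in low pH roots at 2 h, against 5.30, 4.95, 4.49 and 5.11 in low pH shoots (ratio 1.45, SE 0.30, adjusted p = 0.00252). In flood roots at 24 h it had 5.91, 5.71 and 5.39, against 3.37, 3.13, 2.94 and 3.03 in flood shoots (ratio -2.55, SE 0.23, 5.85-fold, adjusted p = 6.49e-06). Both comparisons showed fully separate wells, and the other 2 ratios that passed were 0.91 at 24 h of low pH (1.14 with adjusted p = 0.0962 with ubiquitin over both plates) and -1.92 at 2 h of flood. The ratio under low pH exceeded that under flood by 3.37 (SE 0.48) at 2 h and by 3.46 (SE 0.32) at 24 h. SlIDD18, of the SlIDD1 group, had 5.01, 4.54, 4.29 and 5.60 in low pH roots at 2 h, against 7.14, 7.26 and 7.20 in low pH shoots (ratio 2.34, SE 0.61, 5.08-fold, adjusted p = 0.0113, and 2.00 with adjusted p = 0.162 with ubiquitin over both plates). Under flood at 2 h its roots had 7.94, 7.09, 6.75 and 6.71, against 6.08, 5.54, 5.32 and 5.90 in shoots (ratio -1.42, SE 0.32, adjusted p = 0.00195). The difference of low pH minus flood was 3.76 (SE 0.70) at 2 h and 2.30 (SE 0.40) at 24 h. Under salt at 2 h SlIDD18 had a ratio of -0.67 (adjusted p = 0.0281), which turned to 0.29 with no reference gene (adjusted p = 0.276).

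SlIDD3, a relative of SlIDD15, was higher in roots under salt and lower in roots at 24 h of low pH. Its ΔCt at 2 h of salt was 5.70, 5.86 and 5.50 in roots, against 6.96, 8.25, 8.58 and 6.84 in shoots (ratio 1.97, SE 0.49, 3.93-fold, adjusted p = 0.0156, and 0.0704 without row 2). At 24 h of low pH it was 5.78, 6.39, 6.71 and 6.82 in roots, against 3.39, 3.20, 2.79 and 3.57 in shoots (ratio -3.18, SE 0.28, 9.08-fold, adjusted p = 1.39e-11). No wells overlapped in either. The ratio at 24 h under salt exceeded that under low pH by 4.33 (SE 0.43). The flood ratio at 24 h was 0.75 (adjusted p = 0.00948) and 0.22 with ubiquitin over both plates. SlIDD12 had smaller ratios in both directions, 1.11 at 24 h of salt (SE 0.24, adjusted p = 0.00273) and -0.79 and -0.69 at the times of flood (adjusted p = 0.00321 and 0.00948). The flood values were 0.027 and 0.21 with no reference gene, and its ratio of 0.79 at 24 h of low pH was -0.0153 with ubiquitin over both plates.

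**Figure D5:**
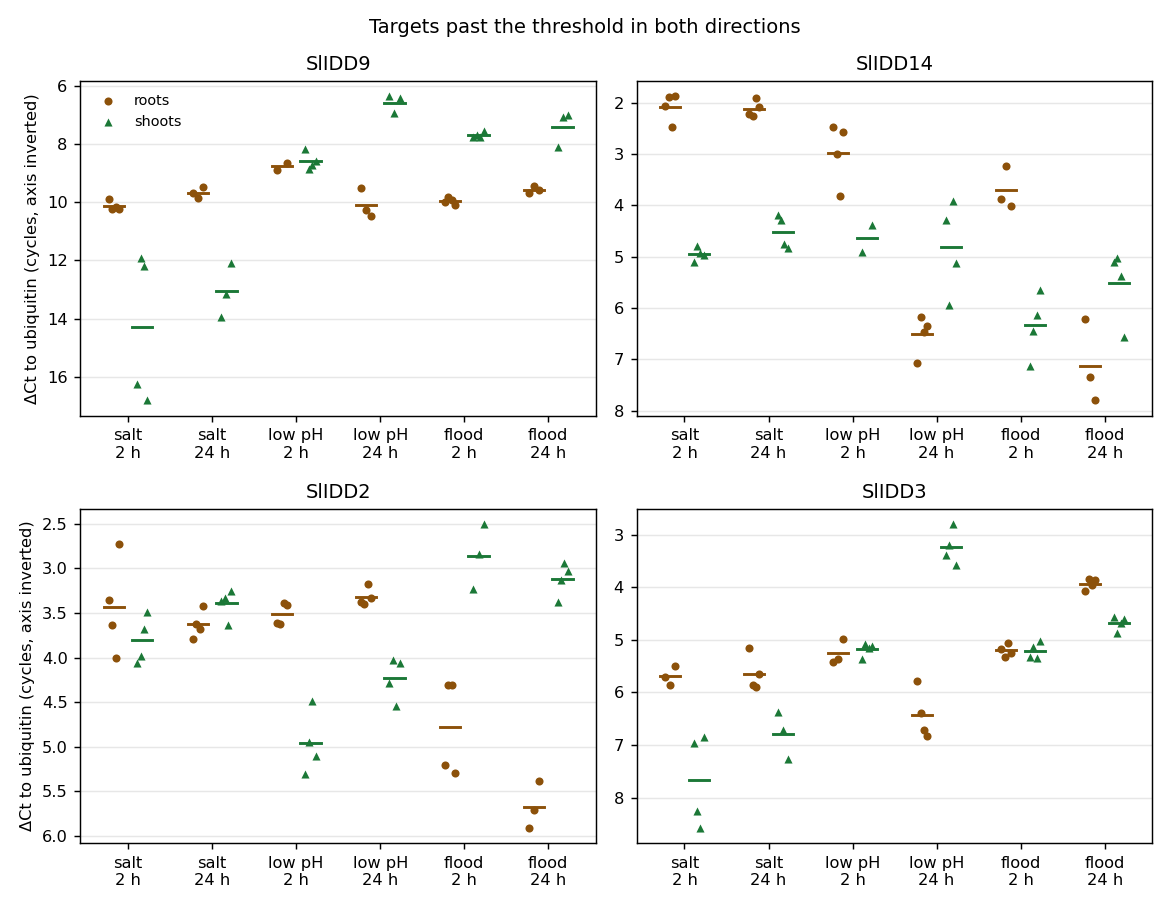
ΔCt to ubiquitin of every well (cycles, axis inverted so that more transcript is higher) for SlIDD9, SlIDD14, SlIDD2 and SlIDD3, in roots (brown circles) and shoots (green triangles) by stress and time, with bars at the means. SlIDD9 roots lay above shoots under salt (ratios 4.15 and 3.39) and below them under flood (-2.26 and -2.16), and SlIDD14 roots moved from above shoots at 2 h of flood (2.63) to below them at 24 h (-1.60).

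The ratios at 24 h of low pH fell apart by plate. The 11 targets of the first plate had a median of -2.67, and 10 of them passed, 2 higher and 8 lower in roots. On the second plate, the 9 targets had a median of -0.16, and 3 passed, 2 higher and 1 lower. Besides SlIDD3, SlIDD7 and SlIDD9, this comparison held the ratio farthest from 0 in the panel, that of SlIDD6, a member of the root-patterning group. SlIDD6 had a ΔCt of 10.28, 10.89, 10.64 and 10.36 in roots, against 6.09, 6.27, 6.50 and 6.07 in shoots (ratio -4.31, SE 0.25, 19.9-fold, adjusted p = 1.18e-15). SlIDD8 had 6.08, 6.29 and 6.60 in roots, against 3.12, 3.33, 2.87 and 2.75 in shoots (ratio -3.30, SE 0.27, 9.88-fold, adjusted p = 9.32e-12). SlIDD10, active in the root exodermis in earlier work, had 6.83, 6.53 and 6.55 in roots, against 3.79, 3.84 and 4.29 in shoots (ratio -2.67, SE 0.29, adjusted p = 2.29e-09). In all of these the shoot wells were lower than any root well by more than 2 cycles. The ubiquitin gap of -1.93 cycles on this plate moved with the result, and its part was not tested. With ubiquitin over both plates the ratios were -4.08 for SlIDD6, -3.07 for SlIDD8 and -2.43 for SlIDD10, and all passed (adjusted p = 3.09e-05, 0.000233 and 0.00131). The 4 genes higher in roots in this comparison (SlIDD2, SlIDD4, SlIDD12 and SlIDD18) and SlIDD11 did not pass with ubiquitin over both plates. Under that setting SlIDD2 and SlIDD4 moved away from 0, to 1.14 and 0.94. SlIDD12, SlIDD18 and SlIDD11 moved toward it, to -0.0153, 0.79 and -1.35. With no reference gene the median of the first plate was -0.73.

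At 2 h of low pH the first plate had a median of -0.69, and the difference of 24 h minus 2 h passed for 8 of 20 targets (40%), each time with a more negative ratio at 24 h. These were SlIDD6 (-3.62), SlIDD13 (-3.38), SlIDD14 (-3.37), SlIDD9 (-3.32), SlIDD3 (-3.11), SlIDD7 (-2.42), SlIDD1 (-2.08) and SlIDD8 (-1.99). They include 6 targets of the first plate and 2 of the second. With ubiquitin over both plates 5 targets passed. Between the times, ubiquitin in roots minus shoots moved from -0.40 to -1.93 cycles on plate 1 and from 0.29 to -0.90 on plate 2. Such a move makes every ratio of its plate more negative, and its part was not tested. Under salt none of 22 targets passed for a difference between times (0%) by the same limma test, and 5 had an unadjusted p under 0.05. At 2 h of low pH no ratio passed with ubiquitin over both plates. The offset between plates counts as error there, and mean ubiquitin Ct of these roots was 14.55 on plate 1 and 17.49 on plate 2. SlIDD1 and SlIDD2 moved away from 0, to 2.31 and 1.80, and the other ratios that had passed moved toward it. SlIDD10 at -1.82 (adjusted p = 0.0278) had -1.47 over both plates (adjusted p = 0.371). SlIDD11 at -1.69 (adjusted p = 0.0456) passed in none of the 4 fits that left out a row.

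As plated, STF4 was lower and CRF5 higher in roots at both times of flood. STF4 had a ΔCt of 4.90, 5.37, 4.90 and 5.08 in flood roots at 2 h, against 1.32, 0.62, 1.11 and 1.53 in flood shoots (ratio -3.91, SE 0.26, 15.1-fold, adjusted p = 6.99e-09). CRF5 had 1.99, 1.91, 1.58 and 1.94 in flood roots, against 4.29, 4.00, 3.44 and 4.18 in flood shoots (ratio 2.12, SE 0.25, 4.35-fold, adjusted p = 4.37e-06). At 24 h the ratios were -3.08 for STF4 and 2.92 for CRF5. With the wells of the pair exchanged in flood roots, CRF5 had -1.08 (adjusted p = 0.0023) at 2 h and -1.26 (adjusted p = 0.000624) at 24 h, and STF4 had -0.71 (adjusted p = 0.0244) and 1.10 (adjusted p = 0.0726). In salt, where nothing stood apart, CRF5 was lower in roots at both times, with 5.89, 5.67, 5.51 and 5.71 in roots at 2 h, against 4.59, 4.16, 4.03 and 3.97 in shoots (ratio -1.51, SE 0.23, 2.85-fold, adjusted p = 0.000221). Its ratio at 24 h of salt was -1.36 (adjusted p = 0.00138), and STF4 had -0.48 and 0.31, neither past the threshold. The direction of CRF5 under flood, and the difference of salt minus flood for it (-3.63 at 2 h and -4.28 at 24 h), therefore rested on how these columns are read.

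SlSTOP1 passed in both flood comparisons, lower in roots, and in no other. At 24 h its ΔCt was 6.17, 5.31 and 5.51 in flood roots, against 3.23, 2.95, 3.14 and 3.17 in flood shoots (ratio -2.54, SE 0.26, 5.81-fold, adjusted p = 1.06e-05). At 2 h of flood the ratio was -1.55 (SE 0.38, adjusted p = 0.00482). Under low pH, the stress its Arabidopsis relative is known for, the roots at 2 h had 4.04, -0.28, 3.14 and 4.05, against 4.81, 3.57 and 3.84 in shoots. The well at -0.28 came from the row whose ubiquitin Ct was 18.94, the wells overlapped and the ratio of 1.33 had a 95% interval of -1.15 to 3.81. By 24 h the low pH ratio was -0.17 (95% interval -0.68 to 0.35). At 24 h, the ratio under low pH exceeded that under flood by 2.37 (SE 0.36) and that under salt exceeded it by 2.39 (SE 0.45).

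The remaining SlIDD genes had fewer or smaller differences. SlIDD-like1, a regulator of stigma position, passed only under salt, at -1.64 (SE 0.48, 3.12-fold, adjusted p = 0.018) at 2 h, with a ΔCt of 7.82, 6.00, 6.06 and 6.03 in roots, against 4.86, 5.49, 4.74 and 4.24 in shoots. Its salt ratio at 24 h was -1.40 (SE 0.34, adjusted p = 0.00273), and its 4 other ratios lay between -1.06 and -0.26. SlIDD17, the duplicate of SlIDD1, was lower in roots at 2 h of salt (-1.19, adjusted p = 0.00677) and at both times of flood (-1.53 and -1.91, adjusted p = 0.000664 and 6.43e-05). Its flood wells at 24 h were 4.08, 4.47, 4.47 and 4.44 in roots, against 2.08, 2.20, 3.08 and 2.47 in shoots, with no overlap. SlIDD5, the OBSCURAVENOSA gene of bundle sheath extensions in leaves, was lower in roots at 24 h of low pH (-2.26, adjusted p = 6.55e-09) and under flood (-1.24 and -0.64, adjusted p = 0.00571 and 0.0272). Without row 2 the ratio at 2 h of flood did not pass (adjusted p = 0.0538), and that at 24 h passed in 1 of 4 fits without a row and was -0.38 without row 4 (adjusted p = 0.298). SlIDD4, a relative of RAVEN of the Arabidopsis root, was higher in roots at 24 h of salt (1.00, adjusted p = 0.00241) and of low pH (0.71, adjusted p = 0.0475), while its 2.44 at 2 h of salt had a 95% interval of 0.25 to 4.63 and did not pass after adjustment (0.0563). SlIDD8, with passes at 24 h of flood (-0.89, adjusted p = 0.00912, and 0.114 without row 4) and at 2 h of low pH (-1.31, adjusted p = 0.00685), and SlIDD6, with a pass at 24 h of flood (-1.50, adjusted p = 0.0114, and -0.84 with adjusted p = 0.0738 without row 4), were lower in roots wherever they passed. SlIDD11 at 2 h of flood (-0.71, adjusted p = 0.0496) passed in none of the fits without a row. It was 0.0287 against the mean of all targets of its plate, a reference that holds the tested genes and so centres their ratios near 0. SlIDD10 and SlIDD11 each had 1 flood root well far from the others at 24 h, at 1.84 and 0.34 against 4.88 to 4.90 and 2.26 to 2.47. Both wells came from the same row, and without that row SlIDD10 had -0.86 in place of 0.27. That fit kept only 1 root well of ubiquitin.

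Over the 5 pairs of duplicate genes and 6 comparisons, both genes passed in opposite directions in 9 of 30 cases (30%) and in the same direction in 5 (16.7%), beside 17.3% and 20.3% over all pairs of targets. SlIDD13 and SlIDD14 were both higher in roots under salt at both times and at 2 h of flood, with pair medians of 2.01, 2.08 and 2.35 against medians of -0.34, -0.12 and -0.77 over all targets, and stood apart at 24 h of flood (2.75 and -1.60). SlIDD1 and SlIDD17 passed in opposite directions at 2 h of salt (2.38 and -1.19) and at both times of flood (0.87 and -1.53, then 0.52 and -1.91). SlIDD2 and SlIDD11 passed in opposite directions under low pH at both times (1.45 and -1.69, then 0.91 and -1.58). With ubiquitin over both plates, where the offset between plates counts as error, these 4 ratios were 1.80, -1.34, 1.14 and -1.35. None passed (adjusted p = 0.171, 0.371, 0.0962 and 0.0667), although those of SlIDD2 had moved away from 0 and those of SlIDD11 toward it. The last turned to a ratio of 0.35 with no reference gene and 0.47 against the mean of all targets. SlIDD9 and SlIDD-like1 passed in opposite directions under salt at both times (4.15 and -1.64, then 3.39 and -1.40). SlIDD3 and SlIDD10 passed together at 24 h of low pH (-3.18 and -2.67) and in opposite directions at 24 h of salt (1.15 and -0.80, the second a ratio of 0.0703 with no reference gene). The difference between the genes of a pair was not tested.

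Of the 6 relatives of Arabidopsis root-patterning genes (SlIDD4, 6, 7, 8, 13 and 14), 3 were higher and 1 lower in roots at 24 h of salt, with a median of 0.75, against -0.12 over all targets (31.8% higher and 27.3% lower). At 24 h of low pH 1 was higher and 4 lower, where 20% and 45% of all targets were. The median was -2.49, but 4 of the 6 lie on the first plate, whose 11 targets had a median of -2.67, against -0.16 on the second plate. At 2 h of salt 2 of the 6 were higher and 1 lower, beside 22.7% and 31.8% of all targets. At 2 h of low pH 1 was higher and 2 lower, beside 20% and 20%. Of all targets under flood, 18.2% were higher and 54.5% lower at each time. Of the 6, 2 were higher and 1 lower in roots than in shoots at 2 h of flood, while 1 was higher and 3 lower at 24 h. The list of relatives of shoot architecture genes held SlIDD5, SlIDD12 and SlIDD-like1, and left out SlIDD9, whose zinc fingers align with theirs. Of the 3 listed genes, 2 were lower and none higher in roots at each time of flood, where 54.5% of all targets were lower. For the same genes 1 was higher and 1 lower at 24 h of low pH (20% and 45% of all targets) and of salt (31.8% and 27.3%).

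The ratio of roots over shoots was also compared between stresses for all targets. Between salt and flood, 6 of 22 targets passed at 2 h (27.3%), 5 with a higher ratio under salt (22.7%) and 1 with a lower one (4.55%). At 24 h 12 passed (54.5%), 9 higher under salt (40.9%) and 3 lower (13.6%). Between salt and low pH, 4 of 20 passed at 2 h (20%), 2 in each direction (10%), and 16 at 24 h (80%), 11 higher under salt (55%) and 5 lower (25%). Between low pH and flood, 6 of 20 passed at 2 h (30%), all of them higher under low pH, and 16 at 24 h (80%), 7 higher (35%) and 9 lower (45%). With ubiquitin over both plates, the low pH counts were 0 and 9 against salt and 3 and 5 against flood. Besides the genes above, SlIDD16 had a ratio under low pH that exceeded that under flood by 3.52 (SE 0.99) at 2 h and by 2.23 (SE 0.33) at 24 h, and SlIDD17 by 1.88 (SE 0.65) and 1.75 (SE 0.37).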

How the data were processed

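The Ct values in cycles (unit given as other) were deposited by the authors, who ran SYBR Green PCR on a Bio-Rad cycler with ubiquitin as the reference. The deposited tables of fold changes were not used. Wells were placed by plate position. The rows of each time were matched to the paper's supplementary fold changes, where 73 of 130 root values and 115 of 128 shoot values came within 0.05 on the log2 scale. This match used ubiquitin averaged over both plates. The placement of root wells is thus less well matched than that of shoot wells. Of 1152 stress wells, 1083 had a Ct, and 1051 were used after 32 with repeated or shifted well names were left out. Ct of used wells ran from 13.65 to 32.65.

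ΔCt was compared with limma 3.58.1 (R 4.3.3) in each stress and time, after adding the variance of the ubiquitin means, and p-values were adjusted over the targets of each comparison by Benjamini-Hochberg. At least 2 wells per tissue were required. Differences between times or stresses used the same test. Ubiquitin was tested by exact two-sided permutation. Errors are correlated, since targets of a plate share ubiquitin wells. The test was checked on simulated data.

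Named targets were the 5 with the largest ratio per comparison among those passing, those passing in 1 direction in 5 or 6 comparisons, and those passing in both directions; the rest are summarised. The genes, lists and tests were chosen with earlier results of these data known. Alternatives changed the reference, the fit, the adjustment and the wells.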

Additional observations from a re-analysis of the deposited data

Results flagged for a closer look

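In 17 of 206 groups of 4 wells (8.25%) a single well lay far from the other 3 by Dixon's criterion, which chance alone meets in about 1 of 20 groups. Under salt, these wells had Ct values of 20.45 for SlIDD5 and 22.36 for SlIDD-like1 in roots at 2 h, 20.04 for SlIDD15 in shoots at 2 h, and 21.73 for SlIDD18 in roots at 24 h. Under low pH they were 18.59 for SlIDD13 in roots at 2 h, 19.85 for SlIDD1 and 21.31 for SlIDD12 in roots at 24 h, and 23.38 for SlIDD1, 22.46 for SlIDD15 and 17.58 for ubiquitin of the second plate in shoots at 2 h. Under flood they were 22.79 for SlIDD8 and 21.04 for SlIDD16 in roots at 2 h, 15.63 for SlIDD13 and 19.30 for SlIDD17 in roots at 24 h, 20.55 for SlIDD8 and 21.45 for SlIDD10 in shoots at 2 h, and 21.22 for SlIDD12 in shoots at 24 h.

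The ratio of roots over shoots differed between conditions, by the test of the difference itself, in 8 of the 9 sets of tests made. Between 24 h and 2 h it differed for 8 targets under low pH and for 1 under flood. Between salt and flood it differed for 6 targets at 2 h and 12 at 24 h, between salt and low pH for 4 and 16, and between low pH and flood for 6 and 16.

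In 16 of these differences both ratios had passed, in opposite directions. They were -4.23 for SlIDD14 between the times of flood. Between salt and flood they were 6.40 for SlIDD9 and -3.63 for CRF5 at 2 h, and 5.55 for SlIDD9, 1.80 for SlIDD12, 4.00 for SlIDD14 and -4.28 for CRF5 at 24 h. Between salt and low pH they were -3.01 for SlIDD18 at 2 h, and 4.33 for SlIDD3, 6.90 for SlIDD9 and 4.09 for SlIDD14 at 24 h. Between low pH and flood they were 3.37 for SlIDD2 and 3.76 for SlIDD18 at 2 h, and 3.46 for SlIDD2, -3.93 for SlIDD3 and 1.48 for SlIDD12 at 24 h. The values for CRF5 rest on flood root wells that stood apart from every other group.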

How the results depend on the processing

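Counts are given as higher, then lower in roots. With ubiquitin over both plates, the offset of ubiquitin between the plates counts as error. Low pH then had 0 and 0 passes at 2 h and 0 higher at 24 h, and flood had 2 higher at 24 h. Differences between times then passed for 5 targets under low pH and 3 under flood, salt minus low pH for 0 at 2 h and 9 at 24 h, and low pH minus flood for 3 and 5. With ubiquitin of the same row, flood at 24 h had 7 lower, and 0 targets differed between its times, where SlIDD14 had too few wells for a test. The mean of all targets, taken within a plate, holds the tested genes and so centres their ratios near 0. Against it, salt at 2 h had 3 higher, flood had 7 lower at 2 h and 6 at 24 h, and 7 targets differed between the times of flood. With no reference gene, salt had 9 and 0 at 2 h and 16 and 1 at 24 h, low pH 2 lower at 2 h and 10 higher at 24 h, flood 4 lower at 2 h, and 5 targets differed between its times.

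The exact permutation test cannot go below p = 0.0286 with 4 wells against 4. After adjustment it can therefore pass targets only where many of them reach that value. It left 0 and 0 in both salt and both low pH comparisons and at 24 h of flood. Of the 78 passing ratios, 12 passed by this test, all at 2 h of flood, and 66 did not. Whether root and shoot wells of the same row came from the same plant is unknown. The correlation of their Ct deviations over targets and ubiquitin ran from -0.491 to 0.524 and passed 0.1 in 7 of 24. It cannot decide the question, since the tissues of 1 plant need not deviate together. With the row as a replicate block, low pH had 1 lower at 2 h and 2 higher at 24 h, and 70 of 78 passing ratios passed. The exchange of STF4 and CRF5 in flood roots, chosen after seeing the data, left 2 higher at 24 h, with -1.08 and -1.26 for CRF5 and 1.10 for STF4 at 24 h.

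Leaving out each row gave 3 to 5 and 4 to 6 at 2 h of salt, 1 to 3 lower at 2 h of low pH, 2 to 4 higher at 24 h of low pH and 2 to 4 higher at 24 h of flood. Differences between times passed for 0 to 2 targets under salt and 1 to 3 under flood, salt minus low pH at 2 h for 0 to 4 and low pH minus flood at 2 h for 3 to 4. Ubiquitin differences on plate 1 then ran from -0.83 to -0.66 and -0.95 to -0.77 in salt at 2 h and 24 h, -2.003 to -1.887 in low pH at 24 h and -0.72 to -0.49 in flood at 2 h. On plate 2 they ran from -1.07 to -0.87 in salt and -0.90 to -0.71 in flood at 2 h. None of these can pass with 3 wells. At 24 h of flood, fits without row 2 or row 4 kept only 1 root well of ubiquitin on plate 1. On plate 2 the same held without row 1 or row 2, at 24 h of flood and of low pH. With the irregularly named wells kept, plate 2 at 24 h gave -1.08 in salt, -0.77 in low pH and -0.89 in flood, now with p = 0.0286 by the exact test.

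Among ratios that passed before or after the change, directions turned with no reference gene for SlIDD18 (0.29) and SlSTOP1 (0.56) at 2 h of salt. At 24 h of salt they turned for SlIDD2 (0.63), SlIDD5 (0.80), SlIDD8 (0.77), SlIDD10 (0.0703), SlIDD11 (0.57), SlIDD16 (0.0273), SlIDD17 (0.93), SlIDD18 (0.67) and SlSTOP1 (0.93). At 24 h of low pH they turned for SlIDD1 (1.82), SlIDD11 (0.35), SlIDD-like1 (0.64), SlIDD17 (0.74) and SlSTOP1 (0.73), and under flood for SlIDD12 (0.027 at 2 h, 0.21 at 24 h) and SlIDD15 (0.0563 at 2 h). Against the mean of all targets they turned for SlIDD17 (-0.87) at 2 h of low pH, SlIDD1 (1.94) and SlIDD11 (0.47) at 24 h of low pH, SlIDD11 (0.0287) at 2 h of flood and SlIDD12 (0.19) at 24 h of flood. With ubiquitin over both plates SlIDD12 had -0.0153 at 24 h of low pH and SlIDD1 -0.00961 at 24 h of flood. SlIDD10 at 24 h of flood ran from -0.86 without row 2 to 0.79 without row 1. The cause of these changes was not tested. The fit over all stress groups, the adjustment over all comparisons and the fit without the ubiquitin error turned no direction, and 69, 74 and 78 of the 78 passing ratios passed.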
